A study of Mus musculus with 15 samples.

Results

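A set of 40 genes of the cell cycle and mitosis was followed through primary astrocytes of mouse brain, the star-shaped glial cells that support neurons and react to injury, under bacterial lipopolysaccharide (LPS) with and without the ginseng saponin ginsenoside Rg1. The members are the rows of the count files with the 40 chosen symbols, out of 25748 symbols, and all 40 were found and were among the 15362 genes tested. Polyadenylated RNA was sequenced from 15 libraries in 3 groups of 5. The first group, Rg1 plus LPS, received 80 µM Rg1 for 12 h and then 1 µg/mL LPS for 6 to 8 h. In the treatment field its libraries carry the names Rg1, Rg2, Rg3, Rg4 and Rg5, some of which other ginsenosides also bear, but their titles give Rg1 with a replicate number, and the titles were followed. The second, LPS, received 1 µg/mL LPS for 6 to 8 h, and its labels carry the abbreviation SCI although it is a cell culture under LPS. The third, control, is described only as control, with no agent named. The sources used here give neither the strain, age and sex of the mice nor whether a group's 5 libraries are separate cultures, and the p-values cover the spread between these libraries alone. No group with Rg1 and without LPS was analysed here.

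Cells that divide pass from G1 phase into DNA synthesis (S phase), then through G2 phase into mitosis. D-type cyclins with the kinases CDK4 and CDK6, and then cyclin E with CDK2, free E2F transcription factors from the retinoblastoma protein, and E2F switches on the genes that license and copy DNA. A second wave of genes, for the mitotic kinases, the spindle checkpoint and the chromosome motors, is transcribed in G2 and mitosis under MuvB complexes bound at a promoter element called CHR, often beside CCAAT boxes. Astrocytes of the healthy adult brain rarely divide, while astrocytes in culture can cycle, and the amount of these transcripts in a culture is widely read as a measure of how many of its cells are cycling. In RNA from whole cultures, fewer cycling cells and less RNA per cycling cell cannot be told apart.

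Values below are CPM, counts as parts per 1000000 of the TMM-scaled library, given for replicates 1 to 5 of each group in that order. Gene differences are log2 fold changes ± SE from edgeR's quasi-likelihood fit over all 15 libraries, and a gene is called changed when its Benjamini-Hochberg adjusted p, taken over all genes tested, is under 0.05. Total counts per library were 36.2 to 41.1 M in Rg1 plus LPS, 34.2 to 41.8 M in LPS and 34.3 to 39.0 M in control. Mitochondrially encoded genes took 2.77% to 4.98% of counts in Rg1 plus LPS, 1.58% to 2.37% in LPS and 2.49% to 2.80% in control. All 9 astrocyte markers examined, among them Gfap and Aldoc, were detected in every library, and Gfap lay between 2210 and 4930 CPM. Scaled to library size alone, 45.9% of the genes called in LPS against control were higher, against 58.5% with TMM. The same share was 65.0% against 48.9% in Rg1 plus LPS against LPS, and 63.9% against 50.9% in Rg1 plus LPS against control.

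The libraries of a group differed widely in the mitotic members, and 2 libraries were the lowest of their groups in most of these genes. Summed over the 22 members of mitosis (cyclins and kinases, spindle checkpoint, kinetochore and spindle, and proliferation markers), replicates 1 to 5 had 273, 475, 267, 271 and 454 CPM in Rg1 plus LPS, 445, 237, 154, 353 and 554 CPM in LPS and 258, 209, 221, 141 and 192 CPM in control. LPS replicate 3 was the lowest of its group in 21 of the 22 genes and control replicate 4 the lowest of its group in 20, while LPS replicate 5 was the highest in 20. Within Rg1 plus LPS, replicates 2 and 5 held the highest value of 21 of the 22 genes between them. The highest library exceeded the lowest 1.78-fold in Rg1 plus LPS, 3.58-fold in LPS and 1.83-fold in control. Group means were 348 ± 107 CPM in Rg1 plus LPS, 349 ± 159 CPM in LPS and 204 ± 42.8 CPM in control (SD, n = 5 each).

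Per gene, the median SD of log2 CPM over the 5 libraries was 0.502 for the mitotic members in Rg1 plus LPS, against 0.222 for all genes tested. In LPS it was 0.784 against 0.182, and in control 0.355 against 0.130. The mitotic members thus varied more between libraries of a group than the typical gene did, most of all under LPS.

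In each of the 3 groups, the library with the lowest mitotic sum also had the highest sums of astrocyte and microglia markers. In Rg1 plus LPS this was replicate 3, whose mitotic sum lay only just below those of replicates 1 and 4, and its 9 astrocyte markers summed to 9855 CPM, against 6281 to 7929.6 CPM in the other Rg1 plus LPS libraries. The same markers summed to 10010 CPM in LPS replicate 3, against 5771 to 7679 CPM in the other LPS libraries, and to 11373 CPM in control replicate 4, against 8893 to 9980 CPM in the other controls. The 8 microglia markers, all detected in every library, summed to 5.05 to 10.3 CPM in Rg1 plus LPS, 11.9 to 47.6 CPM in LPS and 11.2 to 51.6 CPM in control. Their highest values stood in LPS replicates 2 and 3, with 35.8 and 47.6 CPM, and in control replicate 4, with 51.6 CPM, and C1qa reached 14.4 CPM at most. None of these 8 was called in LPS against control, while Rg1 plus LPS had 5 of them lower than LPS and 3 lower than control. Of all genes tested, 22.2% were called higher and 23.2% lower in Rg1 plus LPS against LPS. The shares were 18.8% and 18.1% in Rg1 plus LPS against control, and 13.8% and 9.82% in LPS against control. Every marker count in this paragraph stands beside these shares. Of the 9 astrocyte markers, 4 were higher and 1 lower in Rg1 plus LPS against LPS, 4 were lower in Rg1 plus LPS against control and 5 were lower in LPS against control. The mitotic members called against control were all higher, 5 of 22 in LPS and 13 of 22 in Rg1 plus LPS. The astrocyte markers called in these comparisons were all lower. Whether these changes are linked was not tested. The 6 pericyte and fibroblast markers summed in Rg1 plus LPS to 1783, 4482, 3773, 2479 and 5319 CPM and were highest in replicates 2 and 5, as were the mitotic members. These markers summed to 3940 to 5422 CPM in LPS and 3589 to 4756 CPM in control. Of the 5 endothelial markers, Cdh5 (80.9 to 163 CPM), Flt1 (2.27 to 29.8 CPM) and Tek (5.92 to 15.4 CPM) were detected in every library, while Cldn5 was at 0 in 12 libraries and Pecam1 in 2. They summed to 90.6 to 107 CPM in Rg1 plus LPS, 164 to 190.2 CPM in LPS and 129 to 157 CPM in control. Of the 3 that were tested, Rg1 plus LPS had 2 lower than LPS and 3 lower than control, and 1 was higher in LPS against control. Of the 5 neuronal markers, Map2 (92.1 to 124 CPM), Tubb3 (25.9 to 45.8 CPM) and Syt1 (5.62 to 11.5 CPM) were detected in every library, while Rbfox3 was at 0 in 9 libraries and Snap25 in 6. Of the 5 oligodendrocyte precursor markers, only Sox10 was absent from any library, at 0 in 2. Olig1 lay at 199 to 291 CPM and Pdgfra at 9.81 to 59.8 CPM. Of the 4 tested, 2 were higher and 2 lower in each comparison of Rg1 plus LPS, and 1 was lower in LPS against control. Of 2 oligodendrocyte markers tested, 1 was lower in Rg1 plus LPS against LPS. Among the 5 neural progenitor markers, Nes lay at 809 to 1390 CPM and Dcx was at 0 in 9 libraries. Of the 4 tested, 2 were lower in LPS against control and 2 higher in Rg1 plus LPS against LPS. In Rg1 plus LPS against control 1 of them was higher and 1 lower. The 2 ependymal markers tested, Foxj1 (44.5 to 112 CPM) and Rsph1 (11.4 to 24.7 CPM), were lower in LPS against control and higher in Rg1 plus LPS against LPS. Whether cells of these other types were present, and what part they had in the results below, was not tested.

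**Figure D1:**
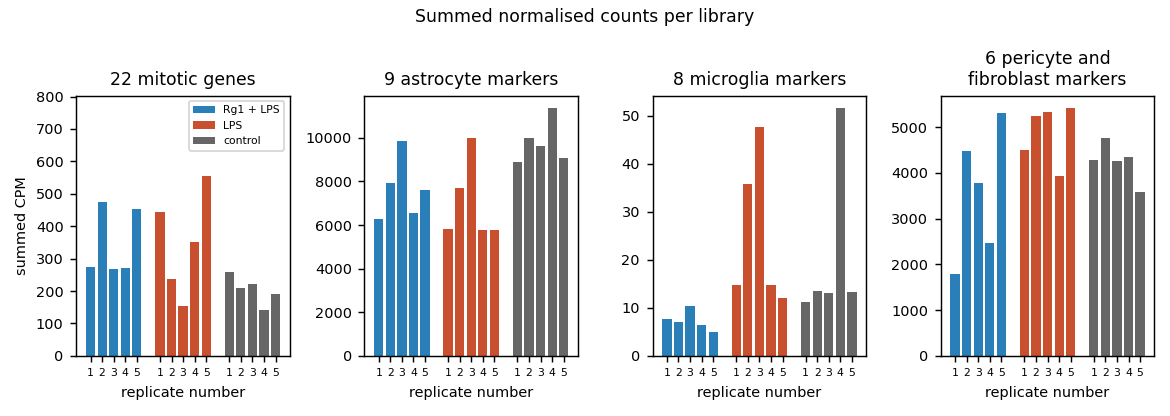
Summed CPM (vertical axes) in each library, by replicate number, for the 22 mitotic members and for markers of astrocytes, microglia, and pericytes and fibroblasts, with Rg1 plus LPS left, LPS in the middle and control right. Each bar is 1 library. Rg1 plus LPS replicate 3 (267 CPM), LPS replicate 3 (154 CPM) and control replicate 4 (141 CPM) have the lowest mitotic sums of their groups and the highest astrocyte marker sums.

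Promoters were read for the members, since the mitotic ones moved together between libraries. Of the 40 members, 33 matched the RefSeq promoter table (GRCm38.p6, 250 bases before to 50 after each gene's start). Ccnd1, Ccnd2, Ccne2, Ccna2, Aurkb, Kif20a and Tpx2 had no entry. The searched letters, on either strand, were TTTGAA or TTCGAA for the CHR element, CCAAT for the CCAAT box, and TTTCCCGC, TTTCGCGC, TTTGCCGC or TTTGGCGC for E2F, and none of these contains another. CHR letters stood in 14 of 18 mitotic promoters and in 1 of the 15 other members' promoters (Mcm2), against 19.2% of the 32851 promoters in the table. The same 14 of 18 mitotic promoters also held CCAAT, a combination found in 7.52% of all promoters. E2F letters stood in 1 mitotic promoter (Cdk1) and in 6 of the 15 others (Cdk2, Mcm3, Mcm5, Mcm6, Cdc6 and Cdt1), against 2.26% of all. Cdk6, Ccne1, E2f1, Tyms, Cdk4, Birc5 and Pttg1 held none of these letters in the window. Ccnd3 has 2 entries, of which the first, used in the counts, held none and the other held CCAAT. A match describes the letters only.

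The promoters of Ttk, Aurka, Cdc20 and Cdt1 are printed because these genes had the smallest p-values among members with a match. They show the CHR and CCAAT letters of 3 mitotic genes beside the E2F letters of Cdt1, a replication gene that went the other way. Among members with E2F letters only Cdt1 fell against control. Cdk1, Cdk2, Mcm3, Mcm5, Mcm6 and Cdc6 had positive fold changes in both comparisons with control, and Cdk2 and Cdc6 were called higher in Rg1 plus LPS. Capitals mark the searched letters, and each promoter reads 5′ to 3′ on the gene's strand.
Ttk (chr9:83834439-83834738, plus strand): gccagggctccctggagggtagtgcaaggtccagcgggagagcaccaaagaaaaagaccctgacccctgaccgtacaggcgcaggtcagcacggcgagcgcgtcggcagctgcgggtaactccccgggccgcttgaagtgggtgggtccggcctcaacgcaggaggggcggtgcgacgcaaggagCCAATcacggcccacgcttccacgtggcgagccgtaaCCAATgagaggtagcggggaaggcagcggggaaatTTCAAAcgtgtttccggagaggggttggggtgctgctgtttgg
Aurka (chr2:172370521-172370820, minus strand): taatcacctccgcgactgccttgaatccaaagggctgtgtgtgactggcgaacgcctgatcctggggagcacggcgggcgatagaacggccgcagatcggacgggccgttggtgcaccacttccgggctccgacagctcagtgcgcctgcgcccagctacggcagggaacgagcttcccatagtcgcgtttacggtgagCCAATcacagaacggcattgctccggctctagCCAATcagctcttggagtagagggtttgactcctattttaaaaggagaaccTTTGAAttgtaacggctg
Cdc20 (chr4:118437294-118437593, minus strand): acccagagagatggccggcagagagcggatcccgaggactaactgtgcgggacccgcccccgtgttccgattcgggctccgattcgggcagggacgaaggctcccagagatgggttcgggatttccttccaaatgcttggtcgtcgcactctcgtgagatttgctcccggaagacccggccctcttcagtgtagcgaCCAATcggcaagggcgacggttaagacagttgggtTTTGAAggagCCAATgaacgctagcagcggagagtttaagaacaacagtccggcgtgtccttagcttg
Cdt1 (chr8:122567765-122568064, plus strand): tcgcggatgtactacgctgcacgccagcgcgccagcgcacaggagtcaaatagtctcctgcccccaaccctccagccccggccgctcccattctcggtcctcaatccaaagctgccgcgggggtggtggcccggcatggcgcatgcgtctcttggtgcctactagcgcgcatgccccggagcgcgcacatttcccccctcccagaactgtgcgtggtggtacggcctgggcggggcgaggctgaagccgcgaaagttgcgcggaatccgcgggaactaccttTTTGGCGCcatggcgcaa
Ttk carries its CHR letters as TTCAAA, the reverse complement of TTTGAA. In Ttk and Aurka 2 CCAAT boxes lie upstream of the CHR letters, whereas in Cdc20 they flank them, and Cdt1 has E2F letters only.

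Under LPS, the clearest change among the 40 members was Cdk6, the kinase partner of D-type cyclins, which averaged 63.6 ± 6.22 CPM in LPS and 19.6 ± 1.15 CPM in control (SD, n = 5 each), while Cdt1, the factor that loads the replicative helicase onto origins, fell. Aurka, Ttk, Kif23, Tpx2 and Mki67, all of mitosis or its markers, rose by 0.84 to 1.27 on the log2 scale. In LPS against control, 6 of the 40 members (15%) were called higher and 1 (2.5%) lower, whereas 23.7% of all genes tested were called, 13.8% higher and 9.82% lower. The share called was thus near that of all genes. The fold change was above 0 for 39 of the 40 members, Cdt1 being the exception, as it was for 49.6% of all genes. The median fold change was 0.60 over the members and -0.0029 over all genes tested. The members' median was 0.39 without LPS replicate 5 and 0.77 without LPS replicate 3, its lowest and highest with 1 library left out. Groups did not overlap for 1 member that was higher (Cdk6) and 1 that was lower (Cdt1), whereas groups of 20.4% of all genes did not overlap, 12.8% higher and 7.64% lower.

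The count of higher members in LPS against control rested on single libraries. It was 23 without LPS replicate 3, and 19 without both LPS replicate 3 and control replicate 4, a setting chosen after seeing the data. It was 2 without LPS replicate 1, 2 without LPS replicate 5 and 3 without control replicate 4. Of the 7 members called, Cdk6, Cdt1 and Aurka were called under each of the 19 alternatives run. Without LPS replicate 3, the 17 members added were Ccne1, Cdk2, Tyms, Cdk1, Ccna2, Ccnb1, Plk1, Aurkb, Birc5, Bub1, Bub1b, Cdc20, Ube2c, Pttg1, Cenpe, Kif20a and Top2a. Bub1 then had a fold change of 1.09 (adjusted p = 0.00297), Birc5 of 1.05 (adjusted p = 0.00448) and Cdc20 of 0.90 (adjusted p = 0.00905). In the main edgeR fit of all 15 libraries these fold changes were 0.86, 0.84 and 0.73, not called. The count also depended on the test, since DESeq2 on all 15 libraries called 14 members higher. Among these were Bub1 (0.86, adjusted p = 0.0357), Birc5 (0.83, adjusted p = 0.0291) and Cdc20 (0.72, adjusted p = 0.0288). Bub1b was also called without LPS replicate 2 (1.03, adjusted p = 0.0439) and Cdk2 without control replicate 5 (0.37, adjusted p = 0.0481).

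In cultures given Rg1 before LPS, 2 of the 40 members were called lower than in LPS, Cdk6 and the cyclin Ccnd2, and none higher. In Rg1 plus LPS against LPS, 45.4% of all genes tested were called, 22.2% higher and 23.2% lower, so the members' share, 0% higher and 5% lower, was well below that of all genes. At an unadjusted p under 0.05 the edgeR fit gave 1 member higher (Cdt1) and 3 lower (Cdk6, Ccnd2 and Kif23). DESeq2 called 0 members higher and 3 lower, with Kif23 (-0.67, adjusted p = 0.0392) beside Cdk6 and Ccnd2. The median fold change was 0.04 over the members (-0.09 without LPS replicate 3 and 0.22 without LPS replicate 5) and 0.03 over all genes tested, and 24 of 40 were above 0, as were 52.7% of all genes. For the 22 mitotic members, fold changes lay between -0.66 and 0.44, with SEs of 0.23 to 0.38, and the main edgeR fit called none. Groups did not overlap for Cdk6 and Ccnd2, both lower, against 27.5% of all genes, 15.1% in that direction. Scaling to library size alone moved the median of all genes to 0.14, and that of the members likewise to 0.14. Under that scaling 2 members, E2f1 and Cdt1, were called higher. Without LPS replicate 3, 4 members were lower, with Kif23 and Top2a added.

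Against control, the Rg1 plus LPS cultures had higher levels of 18 members, 13 of them mitotic. In Rg1 plus LPS against control, 18 of the 40 members (45%) were called higher and 2 (5%) lower, Cdt1 and Ccnd2, whereas 36.9% of all genes tested were called, 18.8% higher and 18.1% lower. Among the 22 mitotic members 13 (59.1%) were higher and none lower, with a median fold change of 0.90, against 0.81 for the same genes in LPS against control. The median over the 40 members was 0.60, against 0.0109 over all genes, and 37 of 40 were above 0, as were 51.1% of all genes. Groups did not overlap for 15 members that were higher and 2 that were lower, against 26.2% of all genes, 13.2% higher and 13% lower. The comparisons with control share the 5 control libraries. The members Aurka, Ttk, Tpx2 and Mki67 were called higher in both of them.

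This count too rested on single libraries. It was 9 without Rg1 plus LPS replicate 2, 9 without Rg1 plus LPS replicate 5, 9 without control replicate 4, and 11 without control replicate 2 or control replicate 5. It was 18 without LPS replicate 3 and control replicate 4, where Mki67 lost its call (0.80, adjusted p = 0.0626). Of the 20 members called, 9 were called under each of the 19 alternatives run, namely Aurka, Birc5, Bub1b, Ccne1, Cdc20, Cdt1, E2f1, Pttg1 and Ttk.

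**Figure D2:**
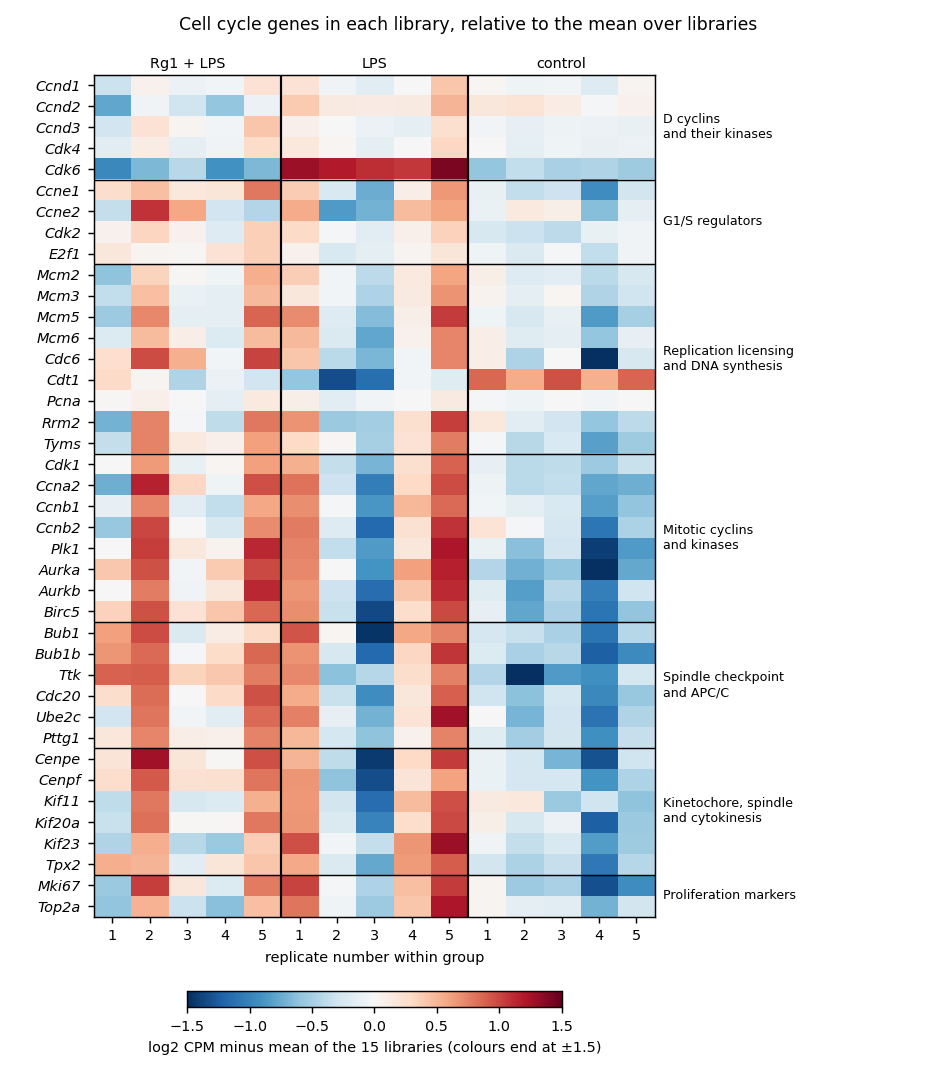
Log2 CPM of each of the 40 members (rows, by role) in each library (columns, by replicate number), minus the gene's mean over the 15 libraries, with Rg1 plus LPS left, LPS in the middle and control right. Colours end at 1.5 either way. Cdk6 is high in all 5 LPS libraries alone, Cdt1 is high in all 5 controls, and the mitotic rows change together from library to library within each group.

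The D-type cyclin gene Ccnd1 was by far the most abundant member per gene length in all 3 groups. It averaged 387 ± 48.5 FPKM in Rg1 plus LPS, 391 ± 64.4 FPKM in LPS and 365 ± 21.5 FPKM in control (SD, n = 5 each), where FPKM is the authors' count per length and depth. Cdk6, at 1.44 ± 0.234, 5.07 ± 0.461 and 1.61 ± 0.104 FPKM in these groups, was far below its relative Cdk4, at 125 ± 14.7, 121 ± 14.0 and 112 ± 4.55 FPKM. Ccnd1, Ccnd3 and Cdk4 were called in none of the 3 comparisons, with fold changes between -0.13 and 0.17. Without Rg1 plus LPS replicate 1, Ccnd3 was called higher in Rg1 plus LPS against control (0.25, adjusted p = 0.0333).

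Cdk6 had 14.0, 17.2, 20.5, 14.6 and 17.2 CPM in Rg1 plus LPS, 66.6, 62.7, 59.2, 57.0 and 72.6 CPM in LPS and 18.3, 21.2, 19.6, 20.1 and 18.9 CPM in control. All 5 LPS libraries lay above every other library, by a wide gap, and Rg1 plus LPS overlapped control. Cdk6 (chromosome 5, 3341004 to 3531008, GRCm38) rose by 1.70 ± 0.10 (adjusted p = 1.27e-09) in LPS against control, and fell by 1.93 ± 0.10 (adjusted p = 1.86e-10) in Rg1 plus LPS against LPS. Both comparisons use the same 5 LPS libraries. In Rg1 plus LPS against control it stood at -0.23 ± 0.10 (adjusted p = 0.0723), not called, while DESeq2 gave -0.24 with an adjusted p of 0.0468, and without Rg1 plus LPS replicate 3 the fold change was -0.31 (adjusted p = 0.011). Leaving out any 1 library kept the Cdk6 fold change between 1.64 and 1.74 in LPS against control, and between -1.995 and -1.87 in Rg1 plus LPS against LPS.

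The levels of Ccnd2 were 682, 1125, 947, 779 and 1103 CPM in Rg1 plus LPS, 1532, 1277, 1268, 1285 and 1661 CPM in LPS and 1312, 1342, 1260, 1148 and 1220 CPM in control. Every Rg1 plus LPS library lay below every library of the other groups, while LPS and control overlapped. This cyclin, which with Ccnd1 activates CDK4 and CDK6, fell by 0.60 ± 0.12 (adjusted p = 0.000942) in Rg1 plus LPS against LPS, fell by 0.44 ± 0.12 (adjusted p = 0.0113) in Rg1 plus LPS against control and stood at 0.16 ± 0.12 (adjusted p = 0.371) in LPS against control. Ccnd2 lies on chromosome 6, from 127125162 to 127152188. With a correction for gene length the fold change against control was -0.28 (adjusted p = 0.0981), so that call was lost. The same correction brought a call for Cdk4 in Rg1 plus LPS against LPS, at -0.29 (adjusted p = 0.00799).

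Of the G1/S regulators, Ccne1, Cdk2 and E2f1 rose in Rg1 plus LPS against control. In the other comparisons none of the 4 regulators, Ccne2 included, was called by the main edgeR fit of all 15 libraries. Cdk2 was called in LPS against control with DESeq2 (0.33, adjusted p = 0.0338), the replicate block (0.33, adjusted p = 0.0331) and the gene length offset (0.34, adjusted p = 0.0432). Library-size scaling called E2f1 in Rg1 plus LPS against LPS (0.28, adjusted p = 0.0154). Rg1 plus LPS cultures had 13.0, 14.9, 12.2, 12.3 and 18.8 CPM of Ccne1, LPS cultures 14.1, 9.27, 6.51, 11.6 and 17.1 CPM and control cultures 10.1, 8.43, 8.76, 5.71 and 9.00 CPM. Values in Rg1 plus LPS lay above all controls, and LPS overlapped both. Ccne1, which encodes cyclin E1, rose by 0.76 ± 0.22 (adjusted p = 0.0123) in Rg1 plus LPS against control, stood at 0.48 ± 0.22 (adjusted p = 0.123) in LPS against control and stood at 0.28 ± 0.22 (adjusted p = 0.31) in Rg1 plus LPS against LPS.

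Values of E2f1 were 36.2, 32.9, 32.6, 37.2 and 41.0 CPM in Rg1 plus LPS, 33.6, 27.4, 29.0, 33.0 and 36.4 CPM in LPS and 30.7, 27.6, 31.8, 24.9 and 31.0 CPM in control. The 5 Rg1 plus LPS values all exceeded the highest control, by a small margin. The gene of this transcription factor rose by 0.30 ± 0.09 (adjusted p = 0.0169) in Rg1 plus LPS against control, a small change with a narrow error, stood at 0.13 ± 0.09 (adjusted p = 0.339) in LPS against control and stood at 0.17 ± 0.09 (adjusted p = 0.135) in Rg1 plus LPS against LPS. Cdk2, the kinase of cyclin E, rose by 0.35 ± 0.12 in Rg1 plus LPS against control (adjusted p = 0.0292), and lost this call without Rg1 plus LPS replicate 2 (0.31, adjusted p = 0.0635), Rg1 plus LPS replicate 5 (adjusted p = 0.0573) or any of control replicates 1, 2 and 3 (adjusted p = 0.0565, 0.0678 and 0.0754). Ccne2 was among the lowest members, at 1.41 to 4.05 CPM in Rg1 plus LPS, 1.06 to 2.88 CPM in LPS and 1.23 to 2.11 CPM in control. It had fold changes of 0.10 to 0.35, with none called.

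Among the 9 genes of replication licensing and DNA synthesis, Cdt1 ran against the rest. Cdt1 had 9.11, 7.72, 5.46, 7.02 and 6.15 CPM in Rg1 plus LPS, 5.00, 2.98, 3.41, 7.28 and 6.59 CPM in LPS and 13.6, 11.0, 14.5, 10.8 and 13.8 CPM in control. All 5 controls lay above every treated library, and the treated groups overlapped, with the lowest values in LPS replicates 2 and 3. Cdt1 (chromosome 8, 122568015 to 122573130) fell by 1.33 ± 0.22 (adjusted p = 0.000257) in LPS against control and fell by 0.85 ± 0.21 (adjusted p = 0.00536) in Rg1 plus LPS against control. Between Rg1 plus LPS and LPS it stood at 0.49 ± 0.22 (adjusted p = 0.0768), not called, and was called without Rg1 plus LPS replicate 3 (0.59, adjusted p = 0.0449), LPS replicate 4 (0.65, adjusted p = 0.0211) or LPS replicate 5 (0.61, adjusted p = 0.0409). Its promoter is the one printed above with E2F letters.

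The levels of Tyms were 6.84, 14.7, 9.71, 9.29 and 13.4 CPM in Rg1 plus LPS, 10.8, 8.87, 6.21, 10.2 and 14.9 CPM in LPS and 8.58, 6.59, 7.51, 4.98 and 6.08 CPM in control. The highest values were in Rg1 plus LPS replicate 2 and LPS replicate 5, and all groups overlapped. Tyms, the thymidylate synthase that supplies thymidine nucleotides, rose by 0.68 ± 0.23 (adjusted p = 0.0306) in Rg1 plus LPS against control, stood at 0.60 ± 0.23 (adjusted p = 0.073) in LPS against control and stood at 0.08 ± 0.23 (adjusted p = 0.804) in Rg1 plus LPS against LPS. Its call was lost without Rg1 plus LPS replicate 2 (0.54, adjusted p = 0.0784), Rg1 plus LPS replicate 5 (0.60, adjusted p = 0.063), or control replicate 2, 4 or 5 (adjusted p = 0.0593, 0.0696 and 0.0623).

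Cdc6, which with Cdt1 loads the helicase, had 1.78 to 3.69 CPM in Rg1 plus LPS, 1.14 to 3.03 CPM in LPS and 0.410 to 1.96 CPM in control, with the lowest value in control replicate 4. It rose by 0.97 ± 0.35 (adjusted p = 0.0382) in Rg1 plus LPS against control, and this call was lost without Rg1 plus LPS replicate 2 or 5 or control replicate 2, 4 or 5 (adjusted p between 0.0573 and 0.081). The helicase subunits Mcm2, Mcm3, Mcm5 and Mcm6 and the ribonucleotide reductase subunit Rrm2 were called in no comparison. Their fold changes were 0.29 to 0.65 in LPS against control, between -0.11 and 0.01 in Rg1 plus LPS against LPS, and between 0.25 and 0.59 in Rg1 plus LPS against control. Pcna, the sliding clamp of DNA polymerase, averaged 50.9 ± 3.70 CPM in Rg1 plus LPS, 50.5 ± 3.96 CPM in LPS and 49.3 ± 1.09 CPM in control, with fold changes of 0.01 to 0.05 and SEs of 0.06. With the gene length correction Pcna was at -0.23 in Rg1 plus LPS against LPS (adjusted p = 0.00728).

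**Figure D3:**
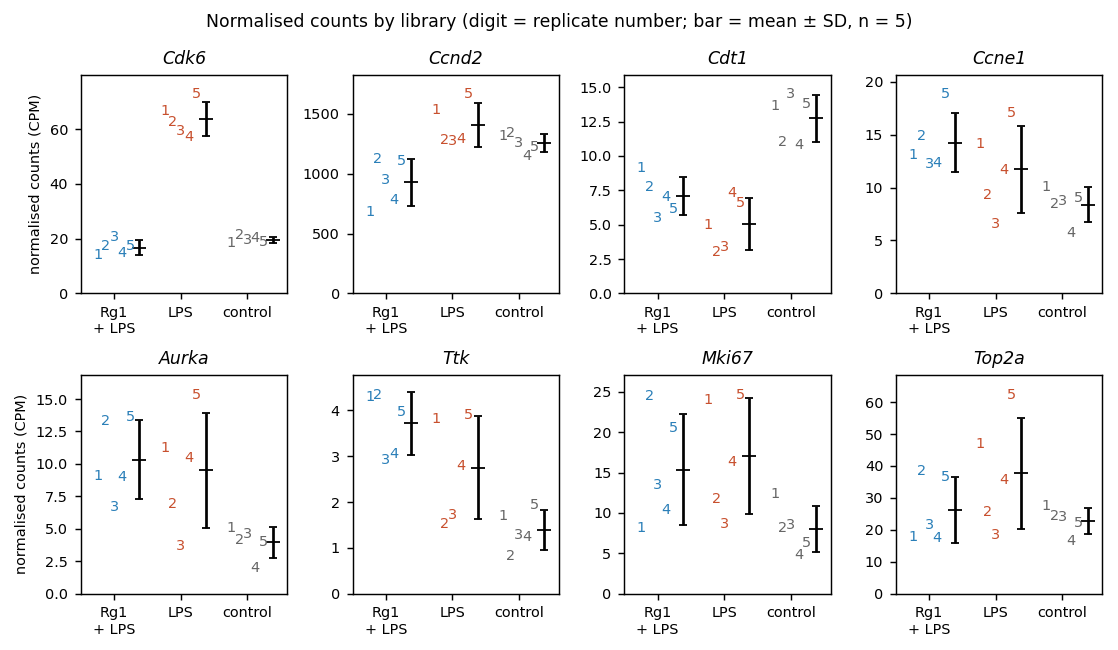
CPM (vertical axes, from 0) of 8 members in each library, written as the replicate number, with the mean ± SD of 5 libraries as a bar, and groups in the order Rg1 plus LPS, LPS and control. Cdk6 separates the LPS libraries from all others, Ccnd2 is lowest in Rg1 plus LPS and Cdt1 is highest in control, while in Aurka, Mki67 and Top2a the LPS replicates spread from the control range to the highest values.

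Of the 8 mitotic cyclins and kinases, Aurka was called in both comparisons with control, and Plk1, Aurkb and Birc5 in Rg1 plus LPS against control. Rg1 plus LPS cultures had 9.06, 13.3, 6.65, 8.99 and 13.6 CPM of Aurka, LPS cultures 11.2, 6.89, 3.69, 10.5 and 15.3 CPM and control cultures 5.04, 4.15, 4.59, 1.96 and 4.01 CPM. LPS replicate 3 lay within the control range and the other 4 LPS libraries above it, while every Rg1 plus LPS library lay above every control. Aurka, the kinase of the centrosome and spindle poles (chromosome 2, 172356190 to 172370886), rose by 1.27 ± 0.33 (adjusted p = 0.0115) in LPS against control and rose by 1.38 ± 0.33 (adjusted p = 0.00435) in Rg1 plus LPS against control. Between Rg1 plus LPS and LPS it stood at 0.11 ± 0.32 (adjusted p = 0.8), not called.

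Values of Birc5 were 11.2, 17.0, 10.2, 11.7 and 16.0 CPM in Rg1 plus LPS, 14.3, 7.00, 3.44, 10.6 and 17.4 CPM in LPS and 8.06, 5.12, 6.25, 4.13 and 5.83 CPM in control. Rg1 plus LPS lay above all controls, whereas LPS ran from below the lowest control to the highest value of all. Birc5, which encodes survivin, a partner of Aurora B at centromeres, rose by 1.17 ± 0.33 (adjusted p = 0.0112) in Rg1 plus LPS against control, stood at 0.84 ± 0.33 (adjusted p = 0.0749) in LPS against control and stood at 0.33 ± 0.32 (adjusted p = 0.431) in Rg1 plus LPS against LPS.

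Plk1, the polo-like kinase that triggers mitotic entry, rose by 1.15 ± 0.37 (adjusted p = 0.0231) and Aurkb rose by 0.99 ± 0.35 (adjusted p = 0.036) in Rg1 plus LPS against control. In both genes Rg1 plus LPS did not overlap control, and both calls were lost without Rg1 plus LPS replicate 2 or 5 or control replicate 4. Plk1 lost its call also without control replicate 5, and Aurkb also without control replicate 2 or 3 (adjusted p between 0.0504 and 0.0912 over these). The mitotic kinase Cdk1 and its cyclins Ccna2, Ccnb1 and Ccnb2 were not called in any comparison by the main edgeR fit of all 15 libraries. With the same libraries, DESeq2 called Cdk1 in Rg1 plus LPS against control (0.607, adjusted p = 0.0294). Scaling to library size alone called Cdk1 (0.685, adjusted p = 0.0364) and Ccna2 (0.99, adjusted p = 0.0431) there. The replicate block with the gene length offset also called Cdk1 (0.62, adjusted p = 0.0404) in Rg1 plus LPS against control. Cdk1 had 22.4 to 37.7 CPM in Rg1 plus LPS and 16.7 to 22.4 CPM in control, and stood at 0.62 ± 0.25 (adjusted p = 0.0611) in that comparison. Without Rg1 plus LPS replicate 3 Cdk1 was called there (0.71, adjusted p = 0.0433), as was Ccna2 without Rg1 plus LPS replicate 1 (1.12, adjusted p = 0.0191). Ccnb1 stood at 0.68 ± 0.29 in LPS against control (adjusted p = 0.103) and 0.53 ± 0.29 in Rg1 plus LPS against control (adjusted p = 0.166).

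The spindle checkpoint holds anaphase until chromosomes are attached, and the APC/C starts it. Of the 6 genes in this group, 5 were called higher in Rg1 plus LPS against control and 1, Ttk, in LPS against control. Ttk had 4.30, 4.34, 2.92, 3.06 and 3.96 CPM in Rg1 plus LPS, 3.82, 1.52, 1.72, 2.79 and 3.91 CPM in LPS and 1.71, 0.813, 1.28, 1.23 and 1.93 CPM in control. LPS replicates 2 and 3 lay within the control range, while all Rg1 plus LPS values exceeded all controls. Ttk (chromosome 9, 83834651 to 83872390) encodes the checkpoint kinase MPS1. It rose by 1.41 ± 0.28 (adjusted p = 0.000989) in Rg1 plus LPS against control and rose by 0.98 ± 0.28 (adjusted p = 0.0181) in LPS against control, the second being lost without LPS replicate 1 (0.84, adjusted p = 0.0572) or LPS replicate 5 (0.82, adjusted p = 0.059). Set against LPS, Rg1 plus LPS stood at 0.43 ± 0.27 (adjusted p = 0.21) for Ttk, not called.

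The levels of Cdc20 were 28.2, 42.1, 23.6, 28.7 and 45.8 CPM in Rg1 plus LPS, 34.6, 18.7, 12.4, 26.6 and 43.8 CPM in LPS and 19.1, 15.4, 19.6, 12.1 and 15.9 CPM in control. The 5 Rg1 plus LPS values stood above all 5 controls, and LPS replicate 3 lay at the level of the lowest control. Cdc20, the activator that lets the APC/C start anaphase, rose by 1.03 ± 0.28 (adjusted p = 0.00966) in Rg1 plus LPS against control, stood at 0.73 ± 0.28 (adjusted p = 0.0742) in LPS against control and stood at 0.31 ± 0.28 (adjusted p = 0.393) in Rg1 plus LPS against LPS. The checkpoint genes Bub1 and Bub1b and the securin gene Pttg1 also rose in Rg1 plus LPS against control, with no overlap, by 0.90 ± 0.34, 1.17 ± 0.33 and 0.82 ± 0.23 (adjusted p = 0.0468, 0.0115 and 0.0112). Bub1 lost this call without any 1 of 9 of the 10 libraries compared, Rg1 plus LPS replicate 3 being the exception (adjusted p between 0.0502 and 0.115). Ube2c, the ubiquitin-conjugating enzyme of the APC/C, was not called, at 0.78 ± 0.34 in Rg1 plus LPS against control (adjusted p = 0.0817) and 0.90 ± 0.34 in LPS against control (adjusted p = 0.0662).

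Of the 6 genes of kinetochore, spindle and cytokinesis, Kif23 and Tpx2 rose in LPS against control, and Cenpe, Cenpf and Tpx2 in Rg1 plus LPS against control. Rg1 plus LPS cultures had 8.02, 15.9, 8.21, 7.42 and 14.1 CPM of Kif23, LPS cultures 21.5, 10.7, 8.54, 17.4 and 26.7 CPM and control cultures 10.6, 8.54, 9.32, 6.15 and 7.57 CPM. The 3 highest libraries were LPS replicates 5, 1 and 4, and Rg1 plus LPS overlapped control. Kif23, a motor of the central spindle needed for cytokinesis, rose by 1.01 ± 0.30 (adjusted p = 0.0232) in LPS against control, stood at -0.66 ± 0.30 (adjusted p = 0.0812) in Rg1 plus LPS against LPS and stood at 0.35 ± 0.30 (adjusted p = 0.386) in Rg1 plus LPS against control. Its call under LPS was lost without LPS replicate 1 or 5 or control replicate 4 or 5 (adjusted p between 0.0504 and 0.0729). Without LPS replicate 3 it was called lower in Rg1 plus LPS against LPS (-0.82, adjusted p = 0.0187), as it was without LPS replicate 2 (adjusted p = 0.0459) or Rg1 plus LPS replicate 2 (adjusted p = 0.036). With all 15 libraries, DESeq2 also called Kif23 lower there (-0.67, adjusted p = 0.0392).

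Values of Tpx2 were 40.9, 39.96, 24.97, 31.8 and 37.3 CPM in Rg1 plus LPS, 41.4, 24.0, 16.4, 43.5 and 52.6 CPM in LPS and 23.2, 20.1, 21.99, 13.3 and 20.7 CPM in control. Every Rg1 plus LPS value lay above every control, and LPS replicate 3 lay inside the control range. Tpx2, the spindle factor that activates Aurora A, rose by 0.84 ± 0.26 (adjusted p = 0.0276) in LPS against control, rose by 0.82 ± 0.26 (adjusted p = 0.0218) in Rg1 plus LPS against control and stood at -0.03 ± 0.25 (adjusted p = 0.942) in Rg1 plus LPS against LPS. The call in LPS against control was lost without LPS replicate 1, 4 or 5 or control replicate 2 or 4 (adjusted p between 0.0534 and 0.0867), and that in Rg1 plus LPS against control without control replicate 4 (0.71, adjusted p = 0.0523). The kinetochore proteins Cenpe and Cenpf rose by 1.08 ± 0.38 and 0.89 ± 0.30 in Rg1 plus LPS against control (adjusted p = 0.0348 and 0.0293). Both lost the call without Rg1 plus LPS replicate 2 or 5 or control replicate 4 or 5, and Cenpe also without control replicate 2 or 3 (adjusted p between 0.0502 and 0.0882). The spindle motors Kif11 and Kif20a were not called, with fold changes of 0.38 and 0.67 in Rg1 plus LPS against control and 0.50 and 0.63 in LPS against control.

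The proliferation markers Mki67 and Top2a differed in their calls, though not by a test of that difference. Mki67 had 8.09, 24.4, 13.4, 10.3 and 20.5 CPM in Rg1 plus LPS, 24.0, 11.8, 8.67, 16.3 and 24.6 CPM in LPS and 12.3, 8.16, 8.52, 4.77 and 6.28 CPM in control. The treated groups each ran from the control range to 24.4 CPM in Rg1 plus LPS and 24.6 CPM in LPS, so that no group was apart from another. Mki67, which encodes the Ki-67 antigen of cycling nuclei, rose by 1.09 ± 0.35 (adjusted p = 0.0327) in LPS against control, rose by 0.94 ± 0.35 (adjusted p = 0.0448) in Rg1 plus LPS against control and stood at -0.15 ± 0.34 (adjusted p = 0.74) in Rg1 plus LPS against LPS. The call in LPS against control was lost without LPS replicate 1, 4 or 5 or any of control replicates 2 to 5 (adjusted p between 0.0525 and 0.0894), and that in Rg1 plus LPS against control without Rg1 plus LPS replicate 2, 3 or 5 or any of control replicates 2 to 5 (adjusted p between 0.0511 and 0.118).

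The levels of Top2a were 17.7, 38.3, 21.5, 17.3 and 36.6 CPM in Rg1 plus LPS, 46.8, 25.6, 18.4, 35.7 and 62.3 CPM in LPS and 27.6, 24.2, 24.0, 16.4 and 22.1 CPM in control. LPS held the highest value, in replicate 5, while its replicates 2 and 3 lay inside the control range, and all groups overlapped. Top2a, the topoisomerase that untangles sister chromosomes, stood at 0.73 ± 0.31 (adjusted p = 0.0983) in LPS against control, stood at -0.52 ± 0.30 (adjusted p = 0.175) in Rg1 plus LPS against LPS and stood at 0.20 ± 0.30 (adjusted p = 0.639) in Rg1 plus LPS against control. Without LPS replicate 3 it was called in the first of these (0.89, adjusted p = 0.0219) and in the second (-0.69, adjusted p = 0.0457).

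**Figure D4:**
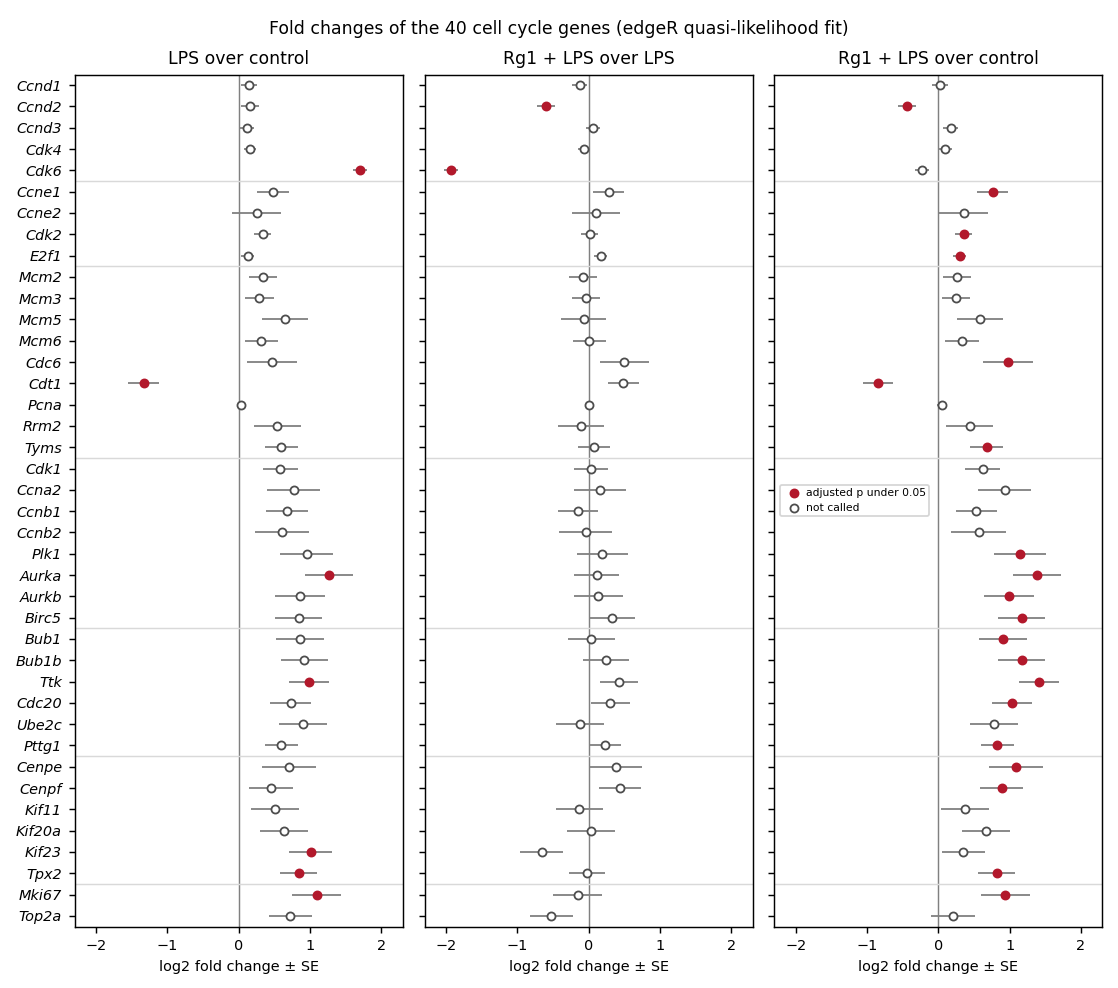
Log2 fold change ± SE (horizontal axes) of the 40 members, by role from top to bottom, in LPS over control, Rg1 plus LPS over LPS and Rg1 plus LPS over control. Filled points are called at an adjusted p under 0.05. The mitotic rows lie right of 0 in both comparisons with control and around 0 in Rg1 plus LPS over LPS, where only Cdk6 and Ccnd2 are called.

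Other genes of the same machinery were taken from 6 lists of 129 genes in all, each gene outside the 40. Of 45 other mitosis genes, 23 were called higher in Rg1 plus LPS against control, 2 higher in Rg1 plus LPS against LPS, and 4 higher in LPS against control, with none lower. These are 51.1%, 4.44% and 8.89% of the list, against 18.8%, 22.2% and 13.8% of all genes, so the share was above that of all genes in the first comparison and below it in the others. The count in LPS against control was 22 without LPS replicate 3 and 0 without LPS replicate 1, LPS replicate 5 or control replicate 4, and it was 10 with DESeq2. That in Rg1 plus LPS against LPS was 4 without LPS replicate 1, 5 without LPS replicate 5 and 1 without LPS replicate 2 or 3 or Rg1 plus LPS replicate 2 or 4. Their median fold changes were 0.68, 0.17 and 0.54 in these comparisons. Cks2, a subunit of cyclin-dependent kinases, rose by 0.99 ± 0.22 in Rg1 plus LPS against control (adjusted p = 0.00236) and by 0.76 ± 0.22 in LPS against control (adjusted p = 0.0189). Cdc25b, the phosphatase that activates CDK1, rose by 0.96 ± 0.21 in Rg1 plus LPS against LPS (adjusted p = 0.00146).

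Of 30 other replication genes, 13 were higher in Rg1 plus LPS against control, 5 higher in Rg1 plus LPS against LPS, and 1 higher in LPS against control, with none lower. Their shares were 43.3%, 16.7% and 3.33%, against the same 18.8%, 22.2% and 13.8% of all genes. With the gene length correction 8 were higher in Rg1 plus LPS against control, and 6 were higher in LPS against control without LPS replicate 3. Gins3, a subunit of the replicative helicase complex, rose by 1.29 ± 0.19 in Rg1 plus LPS against control (adjusted p = 6.04e-05) and by 0.78 ± 0.18 in Rg1 plus LPS against LPS (adjusted p = 0.00232). Gmnn, the inhibitor of Cdt1, rose by 0.66 ± 0.16 in Rg1 plus LPS against control (adjusted p = 0.00493).

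Among 10 CDK inhibitors and pocket proteins, which restrain the G1/S kinases and E2F, 3 were called higher and 3 lower in Rg1 plus LPS against LPS, 1 higher and 2 lower in Rg1 plus LPS against control, and 3 and 2 in LPS against control. Against LPS the list's shares were 30% higher and 30% lower, beside 22.2% and 23.2% of all genes. In Rg1 plus LPS against control they were 10% and 20%, against 18.8% and 18.1%. In LPS against control 30% were higher and 20% lower, against 13.8% and 9.82%. With 10 genes in the list, the calls were too few in each comparison to compare these shares closely. Cdkn1a (p21) and Cdkn2b (p15) rose in LPS against control by 0.83 ± 0.10 and 0.74 ± 0.08 (adjusted p = 6.81e-06 and 1.44e-06). Both fell in Rg1 plus LPS against LPS, at -1.04 ± 0.10 and -0.93 ± 0.08 (adjusted p = 2.76e-07 and 5.51e-08). Cdkn1b (p27) fell in LPS against control, at -0.43 ± 0.11 (adjusted p = 0.00927). In Rg1 plus LPS against LPS it rose by 0.31 ± 0.11 (adjusted p = 0.0308). Cdkn2d stood at -0.37 ± 0.10 (adjusted p = 0.0111) and 0.55 ± 0.10 (adjusted p = 0.00026) in the same 2 comparisons. Of 15 E2F, DREAM and MuvB factors, 3 were higher and 2 lower in Rg1 plus LPS against LPS, 4 higher and 2 lower in Rg1 plus LPS against control, and 5 and 2 in LPS against control. Shares higher were 20% against LPS, 26.7% in Rg1 plus LPS against control and 33.3% in LPS against control, where all genes had 22.2%, 18.8% and 13.8%. The share lower was 13.3% in each, where all genes had 23.2%, 18.1% and 9.82%. E2f3 was among those higher in LPS against control (0.49 ± 0.07, adjusted p = 0.000129) and lower in Rg1 plus LPS against LPS (-0.76 ± 0.08, adjusted p = 6.31e-07). E2f2 went the other way in these comparisons, at -1.03 ± 0.28 (adjusted p = 0.0121) and 1.47 ± 0.27 (adjusted p = 0.000354).

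Of 20 p53 targets and DNA damage checkpoint genes, 6 were higher and 8 lower in Rg1 plus LPS against LPS, 8 higher and 2 lower in Rg1 plus LPS against control, and 4 and 2 in LPS against control. For all genes tested the shares were 22.2% and 23.2%, 18.8% and 18.1%, and 13.8% and 9.82%, while in this list they were 30% and 40%, 40% and 10%, and 20% and 10%. The antiproliferative gene Btg2 rose by 1.96 ± 0.07 in LPS against control (adjusted p = 6.10e-12) and fell in Rg1 plus LPS against LPS, at -1.42 ± 0.07 (adjusted p = 2.11e-10). Gadd45b, a stress-induced growth arrest gene, stood at 2.04 ± 0.14 (adjusted p = 2.68e-08) and -2.16 ± 0.14 (adjusted p = 8.41e-09) in the same comparisons. Among the 6 higher in Rg1 plus LPS against LPS were Gadd45g (1.42 ± 0.14, adjusted p = 6.18e-07) and Bbc3 (0.70 ± 0.13, adjusted p = 0.000446). Of 9 Myc and quiescence-linked genes, 1 was higher and 6 lower in Rg1 plus LPS against LPS, 0 higher and 4 lower in Rg1 plus LPS against control, and 2 and 2 in LPS against control. The 6 lower in Rg1 plus LPS against LPS are 66.7% of the list, where 23.2% of all genes were lower, and the 4 lower in Rg1 plus LPS against control are 44.4%, where 18.1% were. Myc itself fell by 0.65 ± 0.12 on the log2 scale in Rg1 plus LPS against LPS (adjusted p = 0.000374) and by 0.96 ± 0.12 in Rg1 plus LPS against control (adjusted p = 1.84e-05).

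**Figure D5:**
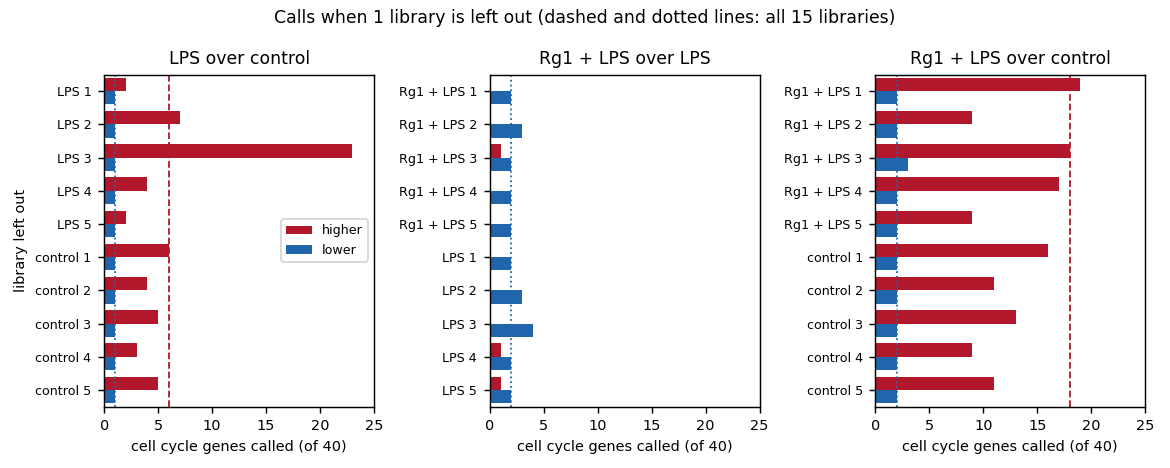
Number of the 40 members called higher (red) and lower (blue) when the library named on the vertical axis is left out, in LPS over control, Rg1 plus LPS over LPS and Rg1 plus LPS over control. The dashed and dotted lines give the numbers with all 15 libraries. The number higher in LPS over control is 23 without LPS replicate 3 and 2 without LPS replicate 1 or 5.

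Some members share exonic sequence with a neighbour on the opposite strand, and no source used here gives the strand setting of the counting, so reads of both genes may not be told apart. The shared part was 29.3% of the exonic bases of Kif20a (with Cdc23), 23.4% of Ccnd1 (with LTO1), 22.8% of Ube2c (with Tnnc2), 19.7% of Cdk4 (with Tspan31), 17.4% of Ccne2 (with Ints8) and 12.5% of Ccna2 (with Exosc9). The partner had more counts than the member over all libraries for Kif20a, Ccne2, Ccna2 and Cdk4, and 6 counts in all for Ube2c. Ccnb1, Ccnb2, Ccnd3, Pcna and Tyms have pseudogene copies in the annotation, and reads of these genes may be split with them. Of these copies, only Ccnb1-ps is among the counted symbols. The least counted member held 459 counts over the 5 libraries of Rg1 plus LPS, 363 in LPS and 255 in control.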

How the data were processed

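Polyadenylated RNA of 15 libraries of primary astrocytes from mouse brain was sequenced by OE Biotech after TRIzol extraction and library preparation with the VAHTS Universal V6 kit, per the labels. The builds are GRCm38 and mm10 per the submitters' processing notes. Aligner, counter, annotation and strand setting: not given in the sources used here. Per library, the authors deposited counts by gene symbol, the basis of all tests, and FPKM, used only to compare levels between genes. Samples were grouped by title.

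In R 4.3.3 with edgeR 4.0.16, genes passing filterByExpr (15362 of 25748) entered 1 quasi-likelihood fit of all 15 libraries with TMM scaling, robust dispersions and group as the only term. Two-sided F-tests were adjusted by the Benjamini-Hochberg method over all genes tested, at a threshold of 0.05. CPM are parts per 1000000 of the TMM-scaled library, and log2 CPM for spread had a prior count of 2. The fit was tested on simulated data. Alternatives included DESeq2 1.42.0, voom of limma 3.58.1, no filter, library-size scaling, a gene length offset and leaving out each library. Gene coordinates are from RefSeq (GRCm38), while exon overlaps and pseudogene names are from GENCODE vM21. Members with the 2 smallest p-values of each role group are given in every library. Up to 3 genes called in each direction were taken from each companion list in order of adjusted p, and a selection of these is given. The members and lists were chosen with earlier results of these data known.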

Additional observations from a re-analysis of the deposited data

How the results depend on the processing

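Over 19 alternatives per comparison, members' fold changes gave 2110 results on the same side of the threshold, 93 that lost a call, 75 that gained one and 2 that turned round. The 2 were Pcna in Rg1 plus LPS against LPS, at -0.23 with the gene length offset (adjusted p = 0.00728) and at -0.23 with the replicate block and that offset (adjusted p = 0.01), against 0.01. In LPS against control, members higher numbered 6. They were 14 with DESeq2, 3 without a filter on low counts, 2 to 23 when 1 library was left out, and 19 without LPS replicate 3 and control replicate 4, a setting chosen after seeing the data. In Rg1 plus LPS against LPS, members higher numbered 0, 2 with library-size scaling, and 0 to 1 when 1 library was left out. Members lower numbered 2 there, 3 with DESeq2, 4 with the gene length offset and 4 with the replicate block and that offset. They numbered 2 to 4 when 1 library was left out and 4 without both libraries. In Rg1 plus LPS against control, members higher numbered 18, 10 without the filter and 9 to 19 when 1 library was left out. Members lower numbered 2 there, 1 with the gene length offset and 1 with the replicate block and that offset. The causes were not tested. Correlations of same-numbered libraries' deviations ran from -0.22 to 0.42, and not every library correlated best with its own number. In Rg1 plus LPS against LPS, replicates 3, 4 and 5 correlated best with their own number (0.42, 0.37 and 0.42). Replicate 2 did so in Rg1 plus LPS against control (0.14). This check cannot settle whether the replicate numbers pair the samples. With the replicate block, members higher and lower numbered 7 and 1 in LPS against control, 0 and 2 in Rg1 plus LPS against LPS, and 17 and 2 in Rg1 plus LPS against control. No library of the 120 gene and group combinations checked lay far from the other 4 by Dixon's test.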
